A study of Mus musculus with 4 samples.

Results

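Replication protein A (RPA) and the checkpoint kinases that answer to it were examined in D2.OR cells, a mouse mammary line described by its labels as pre-malignant hyperplastic alveolar cells. The 10 genes are those for the RPA subunits (Rpa1, Rpa2, Rpa3), the kinase ATR and its partner (Atr, Atrip), the ATR activators (Topbp1, Etaa1), the kinase ATM (Atm) and the downstream kinases (Chek1, Chek2). They were chosen by symbol, and each was found once among the 48432 gene identifiers of the deposited table. The tested cells expressed BORG, a long non-coding RNA (2 libraries), and were set against parental cells (2 libraries). Total RNA was sequenced after 7 days of growth in 3D on basement membrane extract in both groups. The table calls the parental condition Empty, and whether those cells carried an empty vector is not stated, so an effect of carrying a vector cannot be told apart from one of BORG. The duplicates are called biological, but whether they came from separate cultures, or whether the BORG-expressing line was 1 clone, is not stated, so a p-value here reflects how the 4 libraries vary, which may be technical.

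RPA coats single-stranded DNA wherever replication or repair exposes it. The coated strand recruits ATR through its partner ATRIP, and ATR is switched on by TOPBP1, which needs the 9-1-1 clamp, or by ETAA1, which binds RPA directly. ATR then activates CHK1, the product of Chek1, which holds back cell division and new replication origins. ATM answers to double-strand breaks and activates CHK2, the product of Chek2. RNA levels say nothing of the phosphorylation by which these kinases work.

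The BORG-expressing libraries held 7900767 and 27131662 fragments assigned to genes, and the parental libraries held 24176438 and 30322679. BORG-expressing replicate 1 was thus the shallowest library, and its counts are the least precise. BORG has 1 entry in the RefSeq annotation, and 0 identifiers of the table matched it, so the labels were not checked against its level. Of the epithelial markers, Krt8, Krt18 and Krt14 were abundant, with Krt14 at 483 and 279 FPKM in BORG-expressing libraries and at 138 and 123 FPKM in parental libraries. Krt18 went the other way, at 569 and 388 FPKM in BORG-expressing libraries and at 712 and 689 FPKM in parental libraries (log2 fold change -0.69 ± 0.09, edgeR adjusted p = 0.00175). Krt8, Cdh1, Krt19 and Krt17 passed as higher, Krt19 at under 1 FPKM in every library. Krt5 and Trp63 stayed under 1 FPKM in every library, and Epcam, an epithelial surface marker, lay between 0.749 and 1.29 FPKM. The fibroblast markers summed to 98.1 and 80.2 FPKM in BORG-expressing libraries and to 108 and 113 FPKM in parental libraries, mostly from Pdgfra. Of 6 leukocyte markers 5 were under 1 FPKM in every library, as were 3 of 4 endothelial and 3 of 3 adipocyte markers. The leukocyte marker above that, Cd68, was at 10.7 and 7.96 FPKM in BORG-expressing libraries, against 4.57 and 5.33 FPKM in parental libraries. It passed as higher (log2 fold change 0.73 ± 0.18, edgeR adjusted p = 0.0191). Pdgfra, Pdgfrb, Ptprc, Cdh5 and Kdr passed as lower, with Ptprc, Cdh5 and Kdr at 1.02 FPKM or less in every library. The part of these markers in the results was not tested. In bulk RNA, fewer cells with a transcript and less of it per cell cannot be told apart.

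Promoter sequence is shown for the genes on which the results turn: Chek1 and Atr, which were lower under every setting that tested them, Rpa1, which was higher, and Rpa2, its partner subunit. Each run covers 250 bases before to 50 bases after the transcription start of RefSeq on GRCm38.p6, 5′ to 3′ on the strand of the gene as RefSeq gives it. Bases shortly after the start were found in a transcript of the gene for 9 of the 10 and not for Rpa1, whose strand was not checked in that way. GENCODE M21 places the starts of Chek1 and Rpa1 outside their windows. Its starts of Rpa2, Rpa3, Atm, Chek2 and Topbp1 also differ from those of RefSeq but lie within the windows. By the GENCODE coordinates the Chek1 window lies wholly within the gene, which starts at 36727065. The Rpa1 window lies wholly before that gene, which starts at 75348324, and holds the start of the neighbouring gene Smyd4. Matches in these windows thus depend on the annotation. Capitals mark matches, on either strand, to a typical E2F site, searched as the letters TTCCCGC, as the letters TTCGCGC, as the letters TTGGCGC and as the letters TTGCCGC.
Chek1, minus strand, chr9:36726609-36726908: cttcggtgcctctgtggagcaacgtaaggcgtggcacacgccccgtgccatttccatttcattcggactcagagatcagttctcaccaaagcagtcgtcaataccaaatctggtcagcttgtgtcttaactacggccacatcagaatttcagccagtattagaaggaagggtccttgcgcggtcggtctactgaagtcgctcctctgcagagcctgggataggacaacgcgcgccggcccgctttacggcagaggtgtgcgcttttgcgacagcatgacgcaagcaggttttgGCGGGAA
Atr, plus strand, chr9:95857347-95857646: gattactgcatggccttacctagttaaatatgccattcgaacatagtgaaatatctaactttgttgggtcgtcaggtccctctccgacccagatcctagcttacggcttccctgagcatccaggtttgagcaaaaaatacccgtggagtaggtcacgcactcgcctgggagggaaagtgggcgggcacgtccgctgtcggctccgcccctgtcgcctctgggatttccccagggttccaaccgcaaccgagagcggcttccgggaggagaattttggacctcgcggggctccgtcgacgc
Rpa1, minus strand, chr11:75348334-75348633: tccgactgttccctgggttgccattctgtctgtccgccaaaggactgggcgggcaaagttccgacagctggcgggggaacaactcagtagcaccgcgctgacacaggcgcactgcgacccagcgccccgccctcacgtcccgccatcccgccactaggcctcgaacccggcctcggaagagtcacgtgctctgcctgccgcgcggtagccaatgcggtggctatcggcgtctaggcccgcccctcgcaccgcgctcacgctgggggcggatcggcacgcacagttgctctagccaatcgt
Rpa2, plus strand, chr4:132768110-132768409: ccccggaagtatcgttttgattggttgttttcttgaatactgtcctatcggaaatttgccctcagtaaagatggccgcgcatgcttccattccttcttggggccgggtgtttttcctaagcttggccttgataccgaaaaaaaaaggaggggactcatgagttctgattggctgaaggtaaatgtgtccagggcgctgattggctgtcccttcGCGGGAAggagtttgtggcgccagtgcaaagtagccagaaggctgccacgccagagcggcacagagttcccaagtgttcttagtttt
Such a match was present in 6 of the 10 promoters (Rpa2, Rpa3, Atm, Chek1, Chek2 and Topbp1, where 2 matches overlap) and in 9.57% of all 32851 promoter windows of the same table. The CHR letters TTTGAA were present in 0 of 10 members and in 17.9% of all windows. CCAAT, on either strand, was present in 7 of 10 members and in 37.4% of all windows. The members' windows were GC-rich, from 50.7% GC in Rpa2 to 73.7% in Topbp1, and base composition was not matched. Genes with the letters of an E2F site both fell (Chek1, Atm) and did not pass the test (Rpa2, Rpa3, Chek2, Topbp1), and Atr, Atrip and Rpa1, which passed, had no match.

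Of the 10 genes, 1 was higher and 4 were lower in BORG-expressing cells at an adjusted p under 0.05 (edgeR's quasi-likelihood test, adjusted over all 15116 genes tested). Rpa1 rose, while Chek1, Atr, Atrip and Atm fell, and Rpa2, Rpa3, Chek2, Topbp1 and Etaa1 did not pass. All 10 passed the filter on low counts. Across all genes tested, 19.9% were higher and 21.3% were lower, 41.1% in all, so 5 of 10 is close to the background. Without parental replicate 1 the count was 3, and without parental replicate 2 it was 2. The median log2 fold change of the 10 was -0.31, against 0.02 over all genes tested. FPKM (fragments scaled to transcript length and library size) of the groups did not overlap for 8 members, with 2 higher and 6 lower in BORG-expressing libraries. The same held for 66.2% of all genes, 32.4% higher and 33.8% lower.

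**Figure D1:**
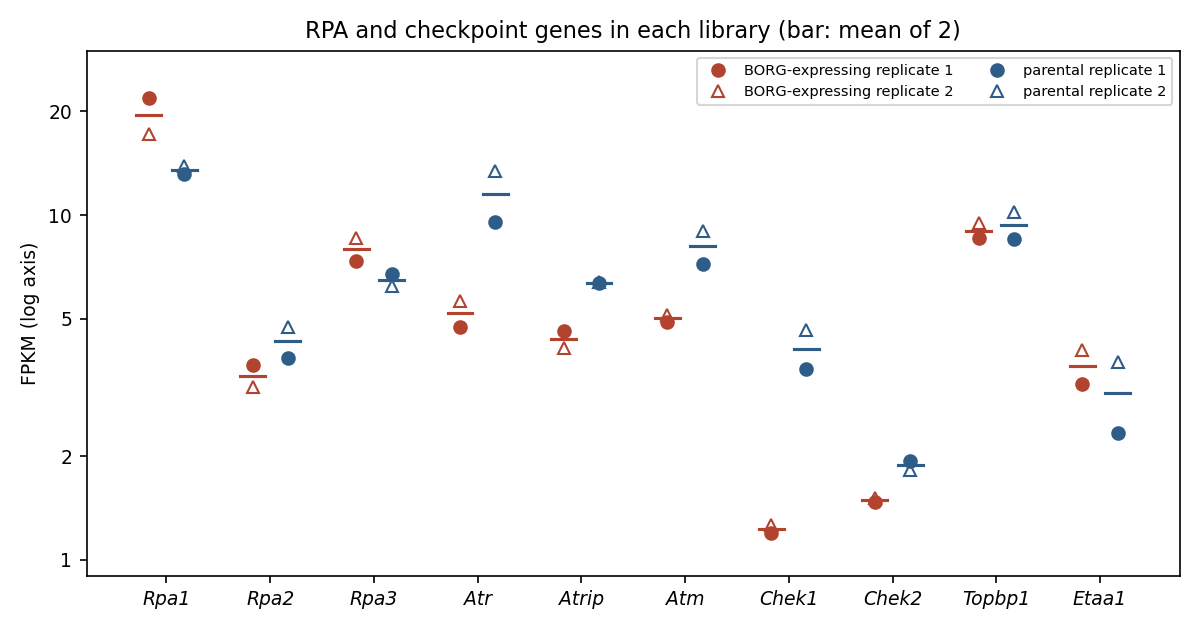
FPKM of the 10 genes in each of the 4 libraries, on a log axis, with BORG-expressing libraries (red) left of parental libraries (blue) and a bar at each mean of 2. Rpa1 is the most abundant gene in all 4 libraries, and the red points of Chek1, near 1.2 FPKM, lie well below the blue ones at 3.57 and 4.64 FPKM.

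Rpa1 encodes the large subunit of RPA, which carries most of its DNA-binding surface. Its level was 21.95 and 17.2 FPKM in the BORG-expressing libraries, against 13.2 and 13.9 FPKM in the parental libraries, the highest of the 10 genes in every library. Both BORG-expressing libraries lay above both parental ones. In CPM (fragments scaled to library size with TMM factors, not to transcript length) it averaged 77.5 ± 9.08 in BORG-expressing cells. In parental cells it averaged 53.6 ± 0.444 CPM (SD, n = 2 each). Rpa1 was thus 1.44-fold higher (log2 fold change 0.53 ± 0.12, SE, edgeR adjusted p = 0.0153). The call was lost without parental replicate 1 (edgeR adjusted p = 0.0828) and without parental replicate 2 (0.0741), and in limma on log2(FPKM + 1) (0.125), with a log2 fold change of at least 0.40 under every setting.

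Rpa2 encodes the middle subunit, which is phosphorylated when replication forks stall. It was at 3.67 and 3.18 FPKM in BORG-expressing libraries, against 3.86 and 4.75 FPKM in parental libraries, so the groups did not overlap but came close. The log2 fold change was -0.37 ± 0.19 with a 95% interval of -0.84 to 0.09 (edgeR adjusted p = 0.1696). Rpa3, the small subunit that holds the complex together, was at 7.38 and 8.58 FPKM in BORG-expressing libraries, against 6.75 and 6.23 FPKM in parental libraries. It rested on few fragments (38 and 134 against 97 and 101), and its log2 fold change of 0.39 ± 0.26 had a 95% interval of -0.23 to 1.01 (edgeR adjusted p = 0.272). Without parental replicate 2 it was 0.24. Its groups did not overlap, but the interval spans 0.

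RPA acts as a complex of its 3 subunits in equal number, which makes their ratio within a library of interest, since it does not depend on scaling between libraries. FPKM of Rpa1 was 5.99 and 5.40 times that of Rpa2 in BORG-expressing libraries, against 3.41 and 2.91 times in parental libraries. The ratio was higher in both BORG-expressing libraries, by 0.85 on the log2 scale of the group means (1.80-fold, exact permutation p = 0.333, two-sided). With 2 libraries against 2, 0.333 is the smallest p that this test can give, so no ratio could pass 0.05. Rpa2 supplied 11.1% and 10.99% of the FPKM summed over the subunits in BORG-expressing libraries, against 16.2% and 19.1% in parental libraries. That sum was 33.0 and 28.9 FPKM in BORG-expressing libraries, against 23.8 and 24.8 FPKM in parental libraries. The ratio of Rpa1 to Rpa3 overlapped between groups (2.98 and 2.00 against 1.96 and 2.22), and its difference changed sign without BORG-expressing replicate 1 (0.23 with all libraries, -0.06 without it). Rpa2 to Rpa3 was 0.497 and 0.371 in BORG-expressing libraries, against 0.573 and 0.764 in parental libraries.

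Chek1 showed the widest difference of the 10 genes. CHK1 is the kinase by which ATR delays mitosis and restrains origin firing. Its level was 1.20 and 1.26 FPKM in BORG-expressing libraries, against 3.57 and 4.64 FPKM in parental libraries. The groups stood well apart, and the BORG-expressing libraries differed by little on this scale but by more in CPM (5.30 and 3.75). In CPM it averaged 4.53 ± 1.10 in BORG-expressing cells and 12.1 ± 1.24 in parental cells (SD, n = 2 each), 2.76-fold lower (log2 fold change -1.46 ± 0.24, edgeR adjusted p = 0.00435). Fragments behind it numbered 42 and 103 in BORG-expressing libraries and 267 and 393 in parental libraries. The call held under all 12 settings that could test it, with log2 fold changes from -1.70 to -1.19.

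Chek2, which acts below ATM after double-strand breaks, was the least abundant of the 10 on average. It was at 1.47 and 1.51 FPKM in BORG-expressing libraries, against 1.94 and 1.82 FPKM in parental libraries. Its log2 fold change was -0.25 ± 0.25 with a 95% interval of -0.86 to 0.35 (edgeR adjusted p = 0.453). Without BORG-expressing replicate 2 it was -0.15. By FPKM, Chek1 exceeded Chek2 in both parental libraries but not in BORG-expressing ones. The ratio of Chek1 to Chek2 FPKM was 0.814 and 0.832 in BORG-expressing libraries, against 1.84 and 2.55 in parental libraries. The log2 ratio of FPKM differed by -1.40 (exact permutation p = 0.333, two-sided, the smallest possible), the widest of the 7 ratios computed. By fragments, not scaled to transcript length, Chek1 exceeded Chek2 in BORG-expressing replicate 1 (42 against 35) but not in replicate 2 (103 against 107). The log2 ratio of fragment counts differed by -1.19.

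Atr encodes the kinase that reads RPA-coated DNA. It was at 4.74 and 5.64 FPKM in BORG-expressing libraries, against 9.56 and 13.4 FPKM in parental libraries. All BORG-expressing values lay below the parental ones, although the parental pair differed from each other. It averaged 50.9 ± 9.49 CPM in BORG-expressing cells and 97.9 ± 12.8 CPM in parental cells (SD, n = 2 each), 1.94-fold lower (log2 fold change -0.96 ± 0.17, edgeR adjusted p = 0.00566). Chek1 and Atr were the only members past the threshold under every setting that tested them, and the log2 fold change of Atr ran from -1.16 to -0.76. The antisense gene Gm16794, which shares 9737 bases of the Atr locus on the other strand, had 8 and 5 fragments in BORG-expressing libraries and 17 and 6 in parental libraries, against 456 to 3239 for Atr.

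Atrip, whose protein binds RPA and brings ATR with it, fell less. It was at 4.60 and 4.13 FPKM in BORG-expressing libraries, against 6.36 and 6.38 FPKM in parental libraries, with parental values almost equal. Its log2 fold change was -0.55 ± 0.15 (1.46-fold lower, edgeR adjusted p = 0.0277). The call was lost in DESeq2 (adjusted p = 0.0590), in limma on log2(FPKM + 1) (0.129) and in edgeR without BORG-expressing replicate 1 (0.0665), without parental replicate 1 (0.113) and without parental replicate 2 (0.0961), while the log2 fold change stayed between -0.62 and -0.46. The 3′ end of Atrip holds Trex1, a DNA exonuclease gene on the same strand that lies wholly within it, and fragments there were split between them by estimate, so both values are uncertain. Trex1 was at 6.62 and 5.17 FPKM in BORG-expressing libraries, against 9.31 and 7.82 FPKM in parental libraries (log2 fold change -0.73 ± 0.25, edgeR adjusted p = 0.0595). With fragments of both summed, chosen after seeing the data, the log2 fold change was -0.62 (edgeR adjusted p = 0.0204). The ratio of Atrip to Atr FPKM was 0.970 and 0.732 in BORG-expressing libraries, against 0.666 and 0.476 in parental libraries. By fragment counts the groups of this ratio overlapped. BORG-expressing replicate 1 (94.3 for Atrip, 456 for Atr) lay just below parental replicate 1 (440 and 2114). The log2 difference between the groups was 0.58 by FPKM and 0.40 by fragment counts.

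**Figure D2:**
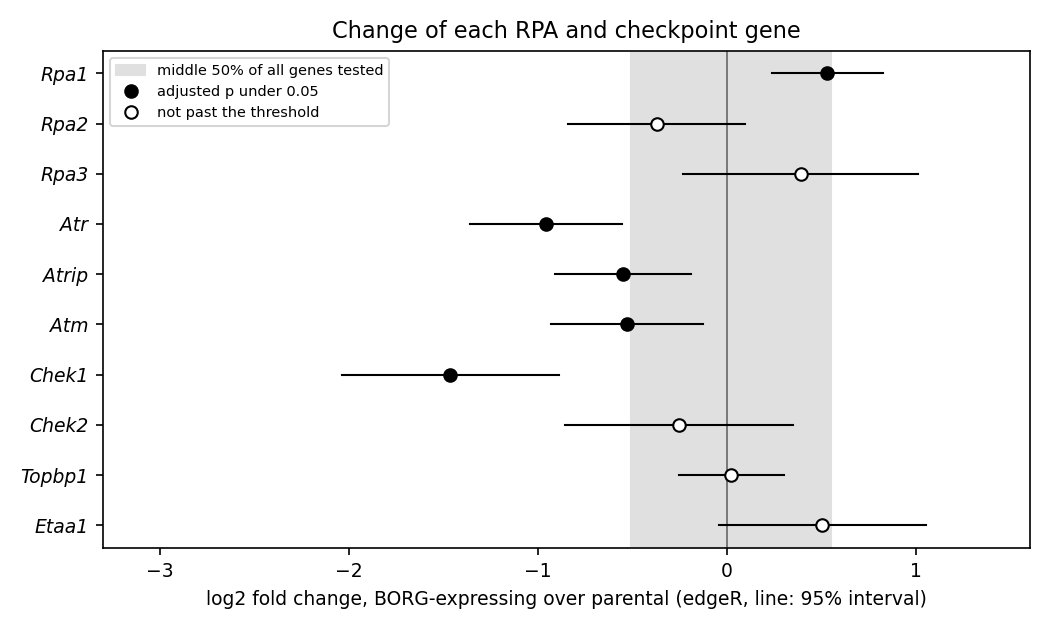
Log2 fold change of BORG-expressing over parental cells for each of the 10 genes from edgeR, with lines for the 95% interval, filled points past an adjusted p of 0.05 and a grey band for the range between the quartiles of all genes tested, from -0.51 to 0.55. Chek1 and Atr lie well left of the band, Atrip and Atm just left of it, and the other 6 points in it.

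Atm, the kinase of the double-strand break response, was at 4.90 and 5.15 FPKM in BORG-expressing libraries, against 7.24 and 9.001 FPKM in parental libraries. In CPM it averaged 64.5 ± 14.0 in BORG-expressing cells and 92.3 ± 6.50 in parental cells (SD, n = 2 each). The log2 fold change was -0.53 ± 0.17 (1.44-fold lower, edgeR adjusted p = 0.0445), which passed narrowly. The call was lost with DESeq2-type size factors (0.0505), with upper quartile factors (0.0655), with genes of at least 5 FPKM (0.0566), in limma on log2(FPKM + 1) (0.0761) and without parental replicate 2 (0.0997, all adjusted p). Without BORG-expressing replicate 2 the log2 fold change was -0.31 (edgeR adjusted p = 0.131). Atm shares its promoter region with Npat, a histone gene activator read in the other direction from a start 307 bases away, and Npat did not pass (0.00 ± 0.15, edgeR adjusted p = 0.988). The ratio of Atm to Atr FPKM was 1.03 and 0.913 in BORG-expressing libraries, against 0.757 and 0.671 in parental libraries. Near equality in BORG-expressing libraries thus holds for FPKM only. By fragments, Atm exceeded Atr there (589 against 456, and 1497 against 1212). In parental libraries Atm had fewer fragments than Atr (2086 against 2114, and 2934 against 3239). The log2 difference of this ratio between the groups was 0.45 by FPKM and 0.42 by fragment counts.

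The genes for the ATR activators did not pass. Topbp1, which activates ATR at the 9-1-1 clamp, was at 8.59 and 9.46 FPKM in BORG-expressing libraries, against 8.55 and 10.2 FPKM in parental libraries, with overlapping groups. Its log2 fold change was 0.02 ± 0.11, and the 95% interval of -0.26 to 0.30 was the narrowest of the 10 (edgeR adjusted p = 0.901). Etaa1, which activates ATR from RPA itself, was at 3.24 and 4.07 FPKM in BORG-expressing libraries, against 2.34 and 3.76 FPKM in parental libraries, again overlapping. In CPM the groups of Etaa1 did not overlap (20.1 and 14.5 against 10.4 and 13.6), and the log2 fold change was 0.50 ± 0.23 with a 95% interval of -0.04 to 1.05 (edgeR adjusted p = 0.123). Without BORG-expressing replicate 2 it passed (0.74, edgeR adjusted p = 0.0202), and it was 0.26 without BORG-expressing replicate 1 and 0.28 without parental replicate 1.

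The scales did not rank libraries alike for every gene. In BORG-expressing replicate 1, 1 FPKM of Etaa1 stood for 6.19 CPM, against 3.56 to 4.44 CPM in the other libraries, and 1 FPKM of Atr for 12.1 CPM, against 7.83 to 9.29. Chek1 and Atm showed the same pattern (4.43 and 15.2 CPM per FPKM in that library), while Rpa1 varied by 1.08-fold between libraries. Atr, Atm, Chek1 and Etaa1 were thus higher in BORG-expressing replicate 1 than in replicate 2 by CPM and lower by FPKM. Topbp1 and Chek2 did the same by smaller margins. Rpa2 and Atrip swapped the other way, lower in BORG-expressing replicate 1 by CPM and higher by FPKM. The cause was not tested. The direction between the group means was the same on both scales for these genes except Topbp1. Its BORG-expressing mean was above the parental one by CPM (58.9 against 57.9) and below it by FPKM (9.03 against 9.39).

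**Figure D3:**
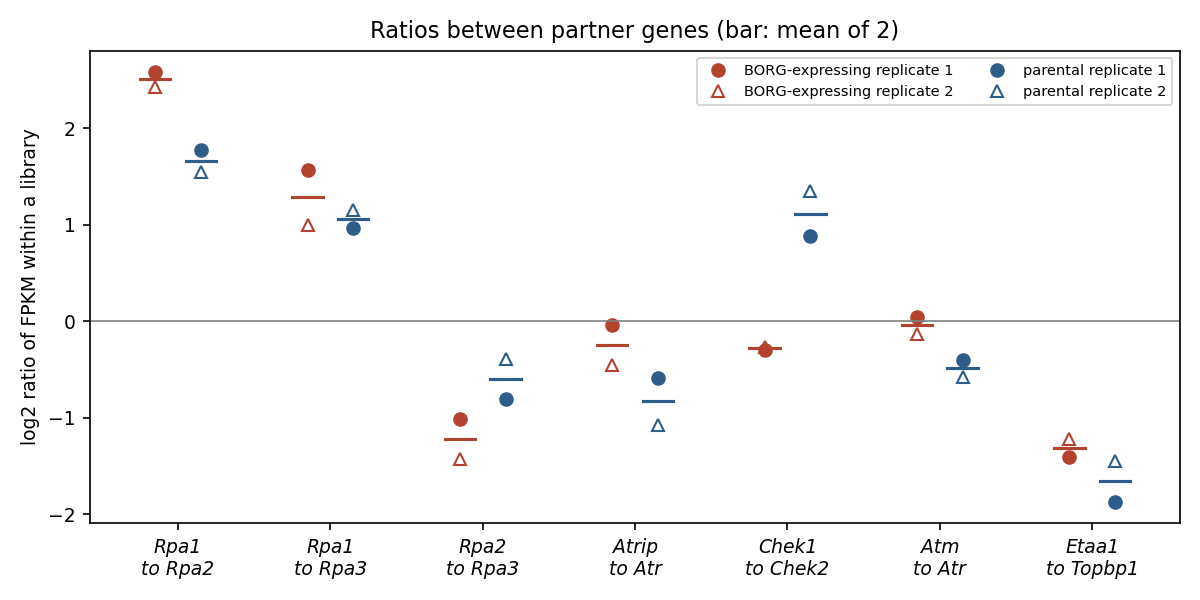
Log2 ratio of FPKM between partner genes within each library, with BORG-expressing libraries (red) left of parental libraries (blue), and bars at the mean of 2. Rpa1 to Rpa2 is higher and Chek1 to Chek2 lower in both BORG-expressing libraries, and Rpa1 to Rpa3 overlaps.

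Several genes start beside a member on the other strand, and the strand setting of counting is unknown here, so fragments where such genes overlap cannot be told apart. Smyd4, a methyltransferase family gene, starts 109 bases from Rpa1 and was also higher, at 2.21 and 1.83 FPKM in BORG-expressing libraries, against 0.764 and 1.05 FPKM in parental libraries (log2 fold change 1.12 ± 0.24, edgeR adjusted p = 0.0122). Hscb, a co-chaperone gene of iron-sulfur cluster assembly, starts 202 bases from Chek2 and was higher (1.06 ± 0.27, edgeR adjusted p = 0.0226), while Chek2 did not pass. Umad1, which starts 115 bases from Rpa3, did not pass (0.08 ± 0.26, edgeR adjusted p = 0.834). Gm45062, beside it, had 239 fragments in BORG-expressing replicate 2 and 204 in parental replicate 2 but under 1 in replicate 1 of either group, and did not pass (edgeR adjusted p = 0.837). Etaa1os and 1700065D16Rik had at most 5 fragments in any library, and 1300017J02Rik, Gm47300 and Gm24004 were listed at 0 in every library.

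Around the 10 genes, 91 others in 9 lists were tested, of which 13 were higher and 32 lower, beside 19.9% higher and 21.3% lower over all genes tested (median log2 fold change -0.35, against 0.02 over all genes tested). The 9-1-1 clamp is the ring that TOPBP1 needs to activate ATR, and 2 of 10 tested genes of the clamp and its loader were higher and 5 lower, against the same 19.9% and 21.3% over all genes. The clamp subunit gene Hus1 fell by 0.75 ± 0.11 on the log2 scale (edgeR adjusted p = 0.00341). Of the other tested clamp subunit genes, Rad9a rose by 0.45 ± 0.12 (edgeR adjusted p = 0.0279). Rad1 (-0.46 ± 0.30) and Hus1b (1.46 ± 0.63) did not pass. The loader gene Rfc5 fell by 1.70 ± 0.27 (edgeR adjusted p = 0.00409), while the loader gene Rfc3 rose by 0.83 ± 0.16 (edgeR adjusted p = 0.00785). Past the threshold were 4 of these genes without parental replicate 1 and 4 without parental replicate 2. Claspin, which presents CHK1 to ATR, and the fork protection genes had 3 of 4 lower (21.3% over all genes) and 0 higher (19.9%). Timeless fell by 1.73 ± 0.22 (edgeR adjusted p = 0.00187), Clspn by 1.35 ± 0.21 (0.00396) and the fork scaffold gene Wdhd1 by 0.69 ± 0.18 (0.0225), each at under 5 FPKM in every library. Tipin, the partner of Timeless that binds RPA, did not pass (-0.19 ± 0.19, edgeR adjusted p = 0.473).

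Genes for other proteins that bind RPA went both ways, with 5 of 15 higher (19.9% over all genes), 4 lower (21.3%) and a median log2 fold change of -0.0016. Brca2, a homologous recombination gene, fell by 1.27 ± 0.16 (edgeR adjusted p = 0.00162) and the helicase gene Blm fell by 1.23 ± 0.16 (0.00187). The fork remodeller gene Hltf rose by 1.28 ± 0.17 and the primase-polymerase gene Primpol by 1.06 ± 0.18, as did the excision repair gene Xpa (0.91 ± 0.26), Rpain, which carries RPA into the nucleus (0.90 ± 0.26), and the helicase gene Wrn (0.52 ± 0.16), all with an edgeR adjusted p under the threshold. Rad18 fell by 0.81 ± 0.14 (edgeR adjusted p = 0.00527). Rad18 and the genes that rose were chosen after their values were seen.

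Of the genes that activate ATM or mediate the response to breaks around it, 4 of 11 were lower and 0 higher (median log2 fold change -0.50), beside 21.3% lower and 19.9% higher over all genes. Of the MRN complex, which brings ATM to breaks, Nbn fell by 1.33 ± 0.14 (4.56 and 5.11 FPKM in BORG-expressing libraries, against 11.9 and 13.7 FPKM in parental libraries, edgeR adjusted p = 0.00101) and Mre11a by 0.50 ± 0.12, while Rad50 did not pass (-0.08 ± 0.18). The acetyltransferase gene Kat5 fell by 0.90 ± 0.12 (edgeR adjusted p = 0.0022) and Atmin, an ATM cofactor, by 0.72 ± 0.12 (0.00434). Other genes of the family of ATM and ATR, with those of the chaperones that assemble its proteins, had 1 of 9 higher (19.9% over all genes) and 5 lower (21.3%). The assembly genes Ruvbl1 (-1.13 ± 0.14, edgeR adjusted p = 0.0017), Telo2 (-1.04 ± 0.16, 0.0034) and Ruvbl2 (-0.97 ± 0.15, 0.0034) fell. Past the threshold were 3 genes of this list without parental replicate 1 and 3 without parental replicate 2. Among the family members themselves, Smg1 fell by 0.44 ± 0.09, Trrap rose by 0.36 ± 0.11, and Mtor (0.20 ± 0.10) and Prkdc (-0.28 ± 0.14) did not pass.

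Downstream, 2 of 10 checkpoint effector genes were higher (19.9% over all genes) and 2 lower (21.3%). Trp53, the transcription factor gene whose product CHK1, CHK2 and ATM phosphorylate, was at 1185 and 1061 FPKM in BORG-expressing libraries, against 222 and 184 FPKM in parental libraries, 5.12-fold higher by CPM (log2 fold change 2.36 ± 0.18, edgeR adjusted p = 2.82e-04). The phosphatase gene Cdc25b rose by 0.97 ± 0.11 (edgeR adjusted p = 0.00104), and the cyclin gene Ccnb1 fell by 0.87 ± 0.18 (0.0111). Cdc25a, whose protein CHK1 marks for destruction (0.03 ± 0.14), Cdc25c (-0.00, with an SE not reliable this near 0) and the kinase gene Wee1 (0.00 ± 0.16) did not pass. Of 8 genes that switch the checkpoint off, 2 were higher (19.9% over all genes) and 0 lower (21.3%): the ubiquitin ligase genes Btrc (0.90 ± 0.14, edgeR adjusted p = 0.00331) and Fbxo6, which marks CHK1 for destruction (0.65 ± 0.18, 0.0282). Past the threshold was 1 of these without BORG-expressing replicate 2 and 1 without parental replicate 2.

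Among other binders of single-stranded DNA, 1 of 10 tested genes was higher (19.9% over all genes) and 2 lower (21.3%), with 1 past the threshold without parental replicate 2. The telomere gene Ctc1 rose by 0.98 ± 0.13 (edgeR adjusted p = 0.0022), while Nabp1 (-0.51 ± 0.15, 0.0326) and its partner Inip (-0.83 ± 0.18, 0.0130) fell. Of 14 tested S phase and proliferation genes 7 were lower and 0 higher, beside 21.3% lower and 19.9% higher over all genes (11 lower without BORG-expressing replicate 1), among them the ribonucleotide reductase gene Rrm2 (-1.86 ± 0.13, edgeR adjusted p = 2.48e-04) and the helicase genes Mcm3 (-1.56 ± 0.14, 4.42e-04) and Mcm2 (-0.97 ± 0.13, 0.00191). Mki67 did not pass (-0.12 ± 0.13, edgeR adjusted p = 0.478). The part of these proliferation genes in the differences of Chek1 and Atr was not tested.

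**Figure D4:**
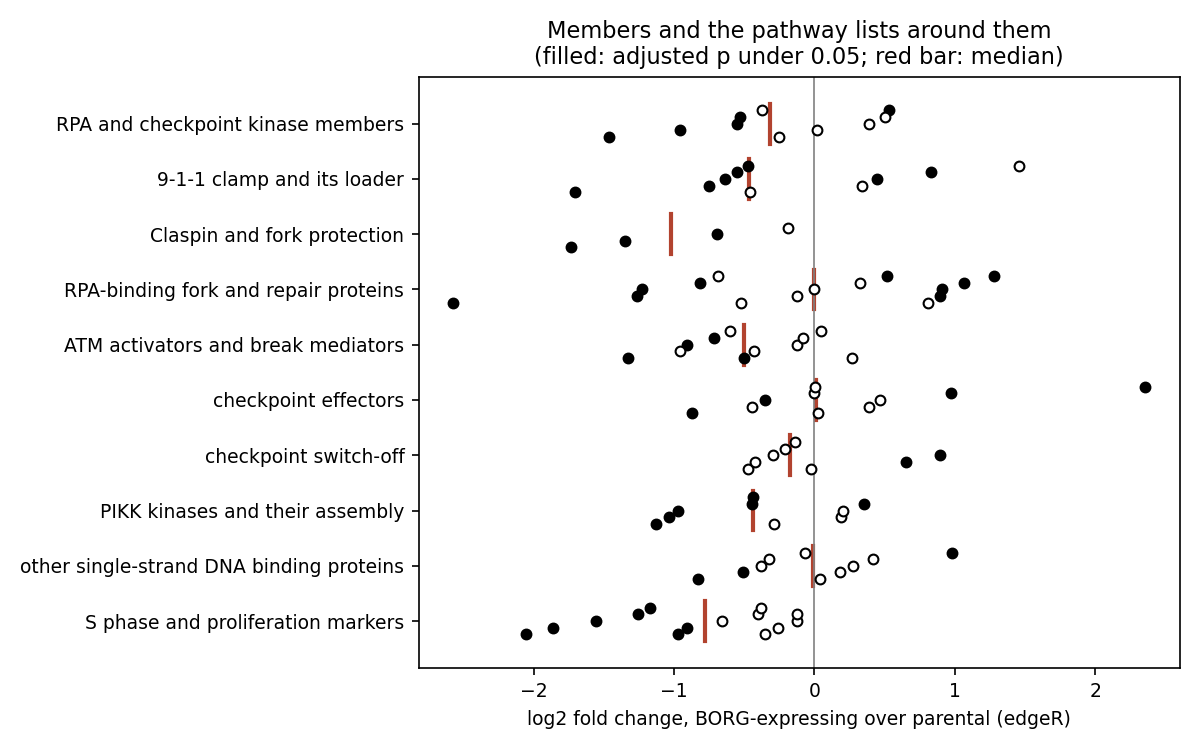
Log2 fold change (BORG-expressing over parental, edgeR) of every tested gene of the RPA and checkpoint set and of 9 lists around it, with filled points past an adjusted p of 0.05 and a red bar at each list's median. The Claspin and S phase lists have no filled point above 0, and the RPA-binding proteins spread to both sides of it.

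Over the 4 libraries, the genes whose centred log2 CPM came nearest to that of Rpa1, among the 100 other members and list genes tested, were Wrn (distance 0.08 on the log2 scale) and Cdk2 (0.19). Those nearest to Rpa2 were Pot1a (0.05) and Cdk1 (0.10), and those nearest to Rpa3 were Rad9a (0.13) and Trrap (0.20). No subunit was among the nearest of another, and with 4 libraries this is a description.

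**Figure D5:**
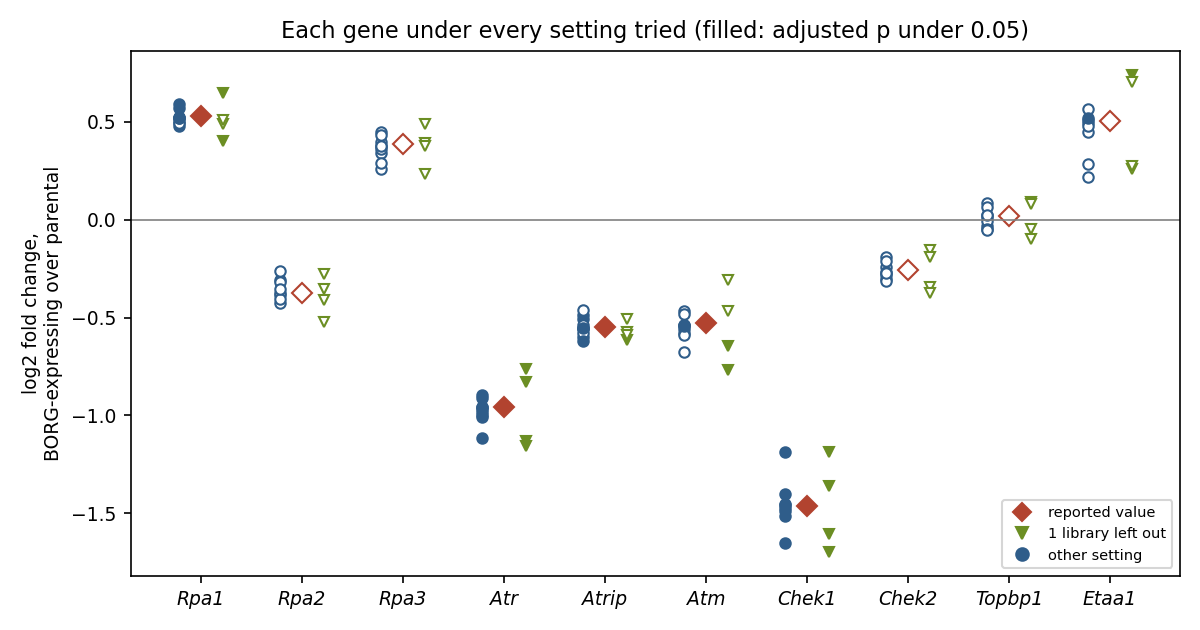
Log2 fold change of each of the 10 genes as reported (diamond), under other settings (circles) and with 1 library left out (triangles), filled where the adjusted p was under 0.05. Chek1 and Atr are filled throughout, Rpa1, Atrip, Atm and Etaa1 in part, and Topbp1 lies on both sides of 0.

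Coordinates of the members are from GENCODE M21 on GRCm38. Rpa1 lies on chromosome 11 at 75298166 to 75348324 (minus strand), Rpa2 on chromosome 4 at 132768332 to 132778752 (plus strand) and Rpa3 on chromosome 6 at 8255936 to 8259173 (minus strand). Atr, on the plus strand, lies on chromosome 9 at 95857597 to 95951781, as does Topbp1 at 103305215 to 103350428. On the minus strand of chromosome 9 lie Chek1 at 36708482 to 36727065, Atm at 53439149 to 53536740 and Atrip at 109057933 to 109074124. Chek2 lies on chromosome 5 at 110839979 to 110874145 (plus strand) and Etaa1 on chromosome 11 at 17938756 to 17953875 (minus strand).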

How the data were processed

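Gene levels were measured by RNA sequencing of total RNA in 4 libraries. The authors deposited estimated counts of fragments and FPKM per gene and library, per the file headers. The submitters' processing notes name TopHat and Cufflinks, beside FastQC and Trim Galore for read quality, and the builds GRCm38, mm10 and mm8. Annotation release and strand setting: not given in the sources used here. The table's conditions BORG and Empty were read as BORG-expressing and parental, and its replicates 0 and 1 as 1 and 2. The 2 columns of scaled fragments were not used. Of 48432 identifiers 48051 had a GENCODE M21 symbol, and 131 of 132 listed genes were found (Radx was not matched).

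After rounding of the estimated counts, genes kept by filterByExpr entered a two-sided quasi-likelihood test (edgeR 4.0.16, R 4.3.3) with TMM scaling, and p-values were adjusted by Benjamini-Hochberg over 15116 genes with a threshold of 0.05. Standard errors are the log2 fold change over the square root of F. CPM use TMM factors. The fit was also run on counts simulated with the same spread for all genes, unlike the data, and no call here rests on that run. Alternatives used DESeq2 1.42.0, limma 3.58.1 (log2 FPKM plus 1 or 0.1, genes of at least 0.5 FPKM), other scalings and filters, the replicate block and leaving out libraries. The 10 genes and all lists were chosen with earlier results of these data known. From each list up to 3 genes with the smallest p among those past the threshold were named; so were genes that overlap a member or start near it on the other strand, and the nearest genes by log2 CPM of each RPA subunit. Others were named after their values were seen. A gene of the RPA-binding list that this rule names is not reported here. Sequences are from RefSeq (GRCm38.p6), and all 10 members matched by symbol.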

Additional observations from a re-analysis of the deposited data

How the results depend on the processing

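Chek1 (12 alternatives) and Atr (13) kept direction and call under every alternative, and Rpa2, Rpa3 and Chek2 kept their direction and stayed short of the threshold. The numbers of replicates do not pair the libraries by the labels, and same-numbered libraries deviated in opposite directions (r = -0.44 across genes). With the replicate block in edgeR 4190 genes passed, and of the members Chek1 and Atr, with log2 fold changes of 0.53 for Rpa1 (adjusted p = 0.0646), -0.55 for Atrip (0.107) and -0.54 for Atm (0.0914) short of it; the block left 3 clamp, 1 switch-off and 3 kinase-family genes. With the crossed block, added after seeing the data, 9319 genes passed, 6 members with Etaa1 (0.52, adjusted p = 0.00115), and 8 ATM activator, 6 switch-off, 6 other single-strand binding and 12 S phase genes.

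Limma on log2(FPKM + 1) and on log2(FPKM + 0.1) passed 3189 and 3310 genes and 2 members in each. Short of the threshold there were Rpa1 (0.49 and 0.52), Atrip (-0.46 and -0.54) and Atm (-0.59 and -0.67). These fits passed 3 clamp genes each, 1 and 0 Claspin genes, and 1 each of ATM activators, switch-off and kinase-family genes. Atm was also short with DESeq2-type size factors (-0.54), upper quartile factors (-0.47) and at least 5 FPKM (-0.48), and Atrip in DESeq2 (-0.58). The 5 FPKM filter left 3 members, 0 Claspin, 2 RPA-binding and 1 switch-off gene, and removed Rpa2, Chek1, Chek2 and Etaa1 from the test.

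Topbp1 changed sign without the filter (-0.030), in DESeq2 (-0.0085) and in limma (-0.049 and -0.053).

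With 1 library left out in turn, log2 fold changes ran from 0.40 to 0.65 for Rpa1, -0.61 to -0.51 for Atrip, -0.77 to -0.31 for Atm, -0.097 to 0.088 for Topbp1, 0.24 to 0.49 for Rpa3, -0.37 to -0.15 for Chek2 and 0.26 to 0.74 for Etaa1. Genes past the threshold numbered 2 to 5 members, 4 to 5 clamp, 1 to 3 switch-off, 3 to 6 kinase-family, 1 to 3 other single-strand binding and 7 to 11 S phase genes. A group left with 1 library was assumed to vary like the other.

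Shallow counts limit Rpa3, Chek1 and Chek2, with 35 to 42 fragments in BORG-expressing replicate 1. The causes were not tested.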
